A study of Homo sapiens with 10 samples.

Results

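The genes described here are 32 human genes of glycolysis, the pentose phosphate pathway and the steps around pyruvate, taken by name: glucose and lactate transporters, every glycolytic step from hexokinase to lactate dehydrogenase, the enzymes that make and break fructose 2,6-bisphosphate, pyruvate dehydrogenase and its kinases, 3 pentose phosphate enzymes and the regulator HIF1A. No measured value entered the choice by rule, but the genes and their roles were chosen with earlier results of these data known. Of the 32 genes, 31 had a matched probe and all 31 passed the filter on dim probes, out of 17379 genes tested in all. ALDOA, a fructose-bisphosphate aldolase, had no matched probe and is named only.

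MEG-01 is a human megakaryoblastic leukemia cell line, the malignant counterpart of the cells that shed platelets. The cells were transfected by nucleofection with 200 nM of a miR-1225-3p precursor or with 200 nM of a scrambled control precursor, and total RNA was taken 24 hours later. Each group held 5 one-colour Agilent arrays, labelled as biological replicates of a single line, so the spread between them is that between cultures of that line. All 10 cultures therefore share the line, the electroporation and the dose of a small duplex RNA, and none was left untransfected. The comparison asks which mRNAs differ when this microRNA, which the study examined in platelets of sickle cell disease, is raised in a megakaryocyte-like line.

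Glycolysis splits glucose into pyruvate in the cytosol and yields ATP, and lactate dehydrogenase then turns pyruvate into lactate, which leaves the cell through monocarboxylate transporters. The pentose phosphate pathway branches off at glucose 6-phosphate and makes NADPH and ribose 5-phosphate. Pyruvate dehydrogenase carries pyruvate into mitochondrial metabolism and is switched off by its kinases. Many of these genes are known targets of the hypoxia-inducible factors, whose alpha subunit is encoded by HIF1A, and proliferating leukemia lines and megakaryocytes both run glycolysis at a high rate.

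The mature microRNA that was raised is shown with its seed, bases 2 to 8, in capitals, because pairing of that stretch with an mRNA is what a microRNA acts through. Its locus lies on the minus strand at chr16:2090195-2090216 (GRCh38.p14, RefSeq).

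hsa-miR-1225-3p: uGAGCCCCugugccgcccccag

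The promoters of the 4 genes with the largest differences among those past the threshold are shown next, from 250 bases before to 50 bases after the transcription start in RefSeq (GRCh38.p14), 5′ to 3′ on the strand of the gene. Capitals mark the core of the hypoxia response element, searched as ACGTG and GCGTG on both strands, so that CACGT and CACGC in capitals are these cores on the opposite strand. The windows are chr21:44299803-44300102 (plus strand) for PFKL, chr1:10398814-10399113 (plus) for PGD, chr12:6535014-6535313 (plus) for GAPDH and chr1:8878637-8878936 (minus) for ENO1.

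PFKL: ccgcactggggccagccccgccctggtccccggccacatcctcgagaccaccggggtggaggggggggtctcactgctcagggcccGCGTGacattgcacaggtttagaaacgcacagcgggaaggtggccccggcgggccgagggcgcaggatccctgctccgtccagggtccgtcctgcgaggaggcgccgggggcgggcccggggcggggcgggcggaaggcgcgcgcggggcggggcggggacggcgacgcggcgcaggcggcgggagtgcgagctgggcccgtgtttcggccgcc

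PGD: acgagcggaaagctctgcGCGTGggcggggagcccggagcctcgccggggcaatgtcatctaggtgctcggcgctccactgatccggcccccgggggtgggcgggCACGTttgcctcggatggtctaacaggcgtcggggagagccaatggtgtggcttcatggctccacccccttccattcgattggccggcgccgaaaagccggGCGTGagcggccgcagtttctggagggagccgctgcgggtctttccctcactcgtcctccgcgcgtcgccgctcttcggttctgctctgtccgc

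GAPDH: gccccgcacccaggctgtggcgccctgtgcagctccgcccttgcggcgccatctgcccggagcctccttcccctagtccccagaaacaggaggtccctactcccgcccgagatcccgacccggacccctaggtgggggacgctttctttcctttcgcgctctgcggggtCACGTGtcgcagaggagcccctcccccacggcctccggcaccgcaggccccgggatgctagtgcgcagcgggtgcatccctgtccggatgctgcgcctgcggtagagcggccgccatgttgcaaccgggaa

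ENO1: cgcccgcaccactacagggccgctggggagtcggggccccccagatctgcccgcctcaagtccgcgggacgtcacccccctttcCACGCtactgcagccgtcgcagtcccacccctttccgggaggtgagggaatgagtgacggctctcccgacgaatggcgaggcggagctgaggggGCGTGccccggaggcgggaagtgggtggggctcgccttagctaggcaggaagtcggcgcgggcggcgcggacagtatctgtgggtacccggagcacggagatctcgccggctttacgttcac

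Each of the 4 windows held at least 1 core, and in GAPDH the capitals are a single palindrome that is read once on each strand. Promoter windows were listed for 29 of the 32 genes. They had 56 windows in all, as some genes have several starts. ACGTG stood in 21 of these 56 windows (37.5%), against 21.4% of all 35116 windows, and GCGTG in 24 (42.9%), against 36.5%. Either core was found in 36 of the 56 (64.3%), against 48.4% of all windows. Counted by gene, which favours genes with several windows, ACGTG stood in at least 1 window of 17 of the 29 (58.6%), against 24.9% of 27305 genes. It was held by 8 of the 14 genes called lower and by 7 of the 12 called in neither direction, and GCGTG by 11 of the 14 and by 8 of the 12. SLC2A3, SLC16A1 and PFKFB2 had no window in the table.

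Before the results, one array has to be set apart. On the first principal component, which held 69.6% of the variance of all genes, miR-1225-3p replicate 5 scored 56.74, within the range of the scrambled arrays (48.65 to 79.87), while the other miR-1225-3p arrays scored between -133.42 and -52.98. It was kept, and for the genes called, values without it are given as well. Why this array lay among the scrambled ones was not tested. There were 2 slides. Slide 1 carried miR-1225-3p replicates 1 and 2 with scrambled replicates 1, 3 and 5, and slide 2 carried miR-1225-3p replicates 3 to 5 with scrambled replicates 2 and 4. No spot was saturated, and between 41.95% and 61.18% of spots per array were well above background. All 31 genes were well above background on all 10 arrays. Of 15 megakaryocyte markers with a probe, 8 were well above background on every array, ITGA2B, ITGB3 and GATA1 among them, and PF4 and TUBB1 on none. Of 10 erythroid markers, 9 were well above background on every array. CD2 and MS4A1 of 5 lymphoid markers were on none, whereas CD3D and CD79A were on all. Of 6 monocyte and granulocyte markers with a probe, 5 were well above background on every array.

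Levels are log2 signals after normalization between arrays by cyclic loess, and differences are log2 fold changes of miR-1225-3p over scrambled. A gene was called when its adjusted p was under 0.05 in limma, adjusted over all genes tested. Of the 31 genes, 14 (45.2%) were called lower and 2 higher in miR-1225-3p transfected cells, whereas 18.1% of all genes were called lower and 17% higher. The median log2 fold change was -0.31 over the 31 genes and -0.06 over all genes. This direction depended on the scaling: with each array's 75th percentile subtracted in place of cyclic loess, 7 of the 31 genes were called lower and 10 higher, against 14.9% and 26.3% of all genes, and the 2 medians were 0.15 and 0.16. After quantile normalization 10 were called lower and 2 higher, against 14.4% and 20.9% of all genes. A fold over 2 as well as the call was reached by 8 of the 31, all lower, and by none that was higher, while 11.7% of all genes were lower and 5.69% higher by this rule. With the 75th percentile subtracted the split was 2 lower (PFKL and PGD) and 2 higher (LDHB and PDK1), against 10.7% and 9.93% of all genes. The 7 genes lower under all 3 scalings were PFKL, ALDOC, GAPDH, ENO2, PKM, PFKFB4 and PGD.

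Without miR-1225-3p replicate 5, 16 genes were called lower and 4 higher, against 29% and 26.4% of all genes. Among the 14 lower genes, replicate 5 was the highest of its group for 13 and lay within the range of the scrambled arrays for 8. As the 14 were called on these same arrays, such counts describe them and are no further test. For 13 of the 14, the other 4 miR-1225-3p arrays all lay below every scrambled array, which was not counted over all genes. Relative to the scrambled mean, the median over the 14 genes was between -1.50 and -1.08 on those 4 arrays, -0.09 on replicate 5 and between -0.11 and 0.16 on the scrambled arrays. The map of the genes by array shows replicate 5 near the scrambled arrays.

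**Figure D1:**
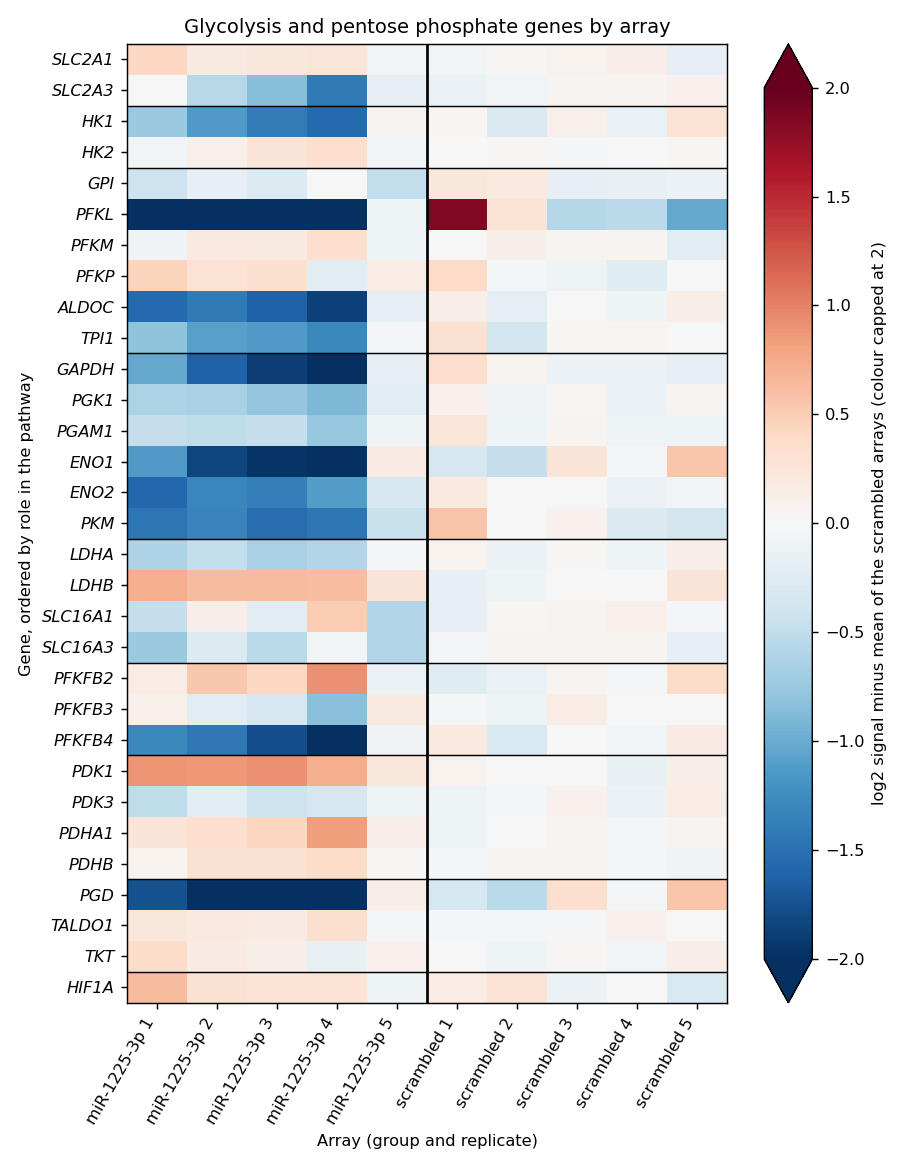
Deviation of the log2 signal from the mean of the scrambled arrays, for 31 genes (rows, ordered by role, with lines between roles) on 10 arrays (columns), on a colour scale capped at 2 in both directions. The 14 genes called lower are blue on most of miR-1225-3p replicates 1 to 4, and replicate 5 is near the scrambled arrays.

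Within slide 1 alone, 12 genes were called lower and 1 higher, against 14% and 11.9% of all genes. There all 14 genes called lower over both slides had every miR-1225-3p array below every scrambled array. The arrays of slide 1 had entered that call, so this separation is no independent result. It was not counted over all genes. Within slide 2 no gene of the 31 was called in limma, nor did any have an unadjusted p under 0.05, and the share of all genes called there was 0%. Leaving replicate 5 out of slide 2 gave 12 lower and 1 higher, against 18.6% and 13.6% of all genes. In RNA from bulk cultures, fewer cells of a type and less RNA per cell cannot be told apart. The summed level of the megakaryocyte markers was 12.98 to 13.23 after miR-1225-3p and 13.45 to 13.64 after the scrambled precursor, and that of the monocyte and granulocyte markers between 9.46 and 9.97 and between 9.14 and 9.50. Erythroid sums ran from 17.71 to 18.34 and from 18.08 to 18.83, and lymphoid sums from 11.95 to 12.57 and from 12.30 to 13.43. Unlogged signals were added, so the brightest marker weighs most. This was NFE2 (means 12.39 and 12.82) for megakaryocyte and HBG1 (17.96 and 18.34) for erythroid markers. NFE2 was at 0.13 with the 75th percentile subtracted. GP6 and PPBP had positive log2 fold changes, 0.43 and 0.17, and were not called. The part of these markers in the results was not tested.

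Glucose enters through the transporters SLC2A1 (GLUT1) and SLC2A3 (GLUT3), and neither was called. SLC2A1 was called higher with the 75th percentile subtracted, at 0.75 (limma adjusted p = 0.0234). Their log2 fold changes were 0.20 and -0.59 (adjusted p = 0.219 and 0.0815 from limma), and without replicate 5 SLC2A3 was called lower with -0.70 (adjusted p = 0.0362). The second probe of SLC2A3 gave -1.31 (adjusted p = 0.045 over kept probes). The change of SLC2A1 exceeded that of SLC2A3 by 0.79, with no overlap between the groups in the difference of both genes on each array. This was 1 of 15 pairs of related genes compared in this way by a two-sided exact permutation test over the 10 arrays, whose smallest possible p is 0.00794, with Benjamini-Hochberg adjustment over the 15. Each gene entered these tests with 1 probe, that of the highest mean signal, so a gap between genes may also be one between probes. For the 2 transporters p was 0.00794 (adjusted 0.0298).

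Hexokinase traps glucose as glucose 6-phosphate. HK1, the widely expressed form, was lower at 9.96 ± 0.647 (SD, n = 5) with miR-1225-3p and 10.92 ± 0.213 (SD, n = 5) with the scrambled precursor, giving a log2 fold change of -0.95 (limma adjusted p = 0.0305), and -1.21 without replicate 5, a fold over 2. It was not called with the 75th percentile subtracted, where its log2 fold change was -0.52 (limma adjusted p = 0.07). HK2, the inducible form of many tumours, had a log2 fold change of 0.12, and under that scaling it was called higher at 0.67 (limma adjusted p = 0.0376). The changes of the 2 forms differed by -1.07 (exact permutation p = 0.0317, adjusted 0.0475).

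GPI, which isomerises glucose 6-phosphate, was not called, with a log2 fold change of -0.27. Phosphofructokinase, the committed step of glycolysis, is built from the products of PFKL, PFKM and PFKP, the liver, muscle and platelet forms. PFKL had the largest difference of all 31 genes. On the miR-1225-3p arrays, in the order of replicates 1 to 5, its log2 signal was 7.20, 6.41, 6.50, 5.78 and 11.92, and on the scrambled arrays it was 13.85, 12.27, 11.43, 11.47 and 10.98. The first 4 miR-1225-3p arrays lay far below every scrambled array, and replicate 5 lay among the scrambled ones. The log2 fold change was -4.44 with a standard error of 1.08 (limma adjusted p = 0.018), that is 21.7-fold lower, and -5.53 without replicate 5. Within slide 1 it was -5.28, and within slide 2 it was -3.80, or -5.73 without replicate 5.

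The other 2 phosphofructokinase genes did not follow. PFKM had a log2 fold change of 0.11 and PFKP one of 0.19, and the second probe of PFKP had -0.42. PFKP was called higher with the 75th percentile subtracted, at 0.69 (limma adjusted p = 0.022). PFKL differed in its change from PFKM by -4.55 and from PFKP by -4.63 (exact permutation p = 0.0317 for each, adjusted 0.0475), whereas PFKM and PFKP differed by -0.08 (p = 0.683). A shift of a whole array cannot change such a difference. Each of these probes stands alone for its gene apart from PFKP, so no second probe of PFKL was available.

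Aldolase cleaves fructose 1,6-bisphosphate, and ALDOC, its brain form, was lower. Its log2 signal was 10.19, 10.33, 10.13, 9.87 and 11.54 on miR-1225-3p arrays 1 to 5, and 11.88, 11.56, 11.75, 11.65 and 11.87 on scrambled arrays 1 to 5. The groups did not overlap, although replicate 5 stood only just below the lowest scrambled array. The log2 fold change was -1.33 with a standard error of 0.281 (limma adjusted p = 0.0142), and -1.62 without replicate 5. TPI1, triose phosphate isomerase, was lower at 14.16 ± 0.506 (SD, n = 5) against 15.03 ± 0.242 (SD, n = 5), giving a log2 fold change of -0.87, and -1.08 without replicate 5, a fold over 2. It was not called with the 75th percentile subtracted, when its log2 fold change was -0.22.

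In the later steps of glycolysis, where ATP is made, all 6 genes of the set were called lower, against 18.1% of all genes. Their median log2 fold change was -1.18. This grouping was chosen with earlier results of these data known, so the count describes the genes and is no independent result. With the 75th percentile subtracted, 3 of the 6 were called lower and none higher, against 14.9% and 26.3% of all genes. Their median was then -0.63. After quantile normalization 4 were called lower, against 14.4% of all genes. PGAM2, PGAM4, ENO3 and PKLR, tested at these steps but outside the set, had -0.67, -0.05, 0.34 and -0.06. None of them was called over all 10 arrays. GAPDH, glyceraldehyde 3-phosphate dehydrogenase, is often used as a reference gene. Its log2 signal was 16.13, 15.53, 15.26, 14.57 and 16.96 on miR-1225-3p arrays 1 to 5. The scrambled arrays read 17.50, 17.21, 17.04, 17.03 and 16.98. The groups did not overlap, with replicate 5 next to the lowest scrambled array. The log2 fold change was -1.47 with a standard error of 0.379 (limma adjusted p = 0.0208), and -1.78 without replicate 5. The call was lost when miR-1225-3p replicate 2 or replicate 3 was left out.

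Enolase makes phosphoenolpyruvate, and both of its forms in the set, ENO1, the ubiquitous one, and ENO2, the neuronal one, were lower. ENO3, outside the set, went the other way over all 10 arrays, by 0.34, but stayed above the threshold for a call. Leaving out replicate 5 brought ENO3 to 0.49, which was called higher (limma adjusted p = 0.0263). ENO1 read 13.52, 12.82, 12.70, 12.31 and 14.82 on miR-1225-3p arrays 1 to 5, and 14.33, 14.18, 14.92, 14.64 and 15.22 on scrambled arrays 1 to 5. Replicate 5 again fell inside the scrambled range and the other 4 below it. The log2 fold change of ENO1 was -1.42 with a standard error of 0.435 (limma adjusted p = 0.0323), and -1.82 without replicate 5. It was -0.81 and not called with the 75th percentile subtracted (limma adjusted p = 0.0516). ENO2 read 10.34, 10.61, 10.54, 10.80 and 11.59 on miR-1225-3p arrays 1 to 5, and 12.10, 11.90, 11.91, 11.79 and 11.85 on scrambled arrays 1 to 5. Its groups did not overlap, and the scrambled arrays were close together. For ENO2 the log2 fold change was -1.13 with a standard error of 0.219 (limma adjusted p = 0.0138), and -1.33 without replicate 5. The changes of ENO1 and ENO2 differed by -0.29 (exact permutation p = 0.508), so no difference between the 2 forms was detected.

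PKM, pyruvate kinase, forms pyruvate and a second ATP. It read 13.05, 13.17, 12.96, 13.05 and 14.05 on miR-1225-3p arrays 1 to 5, and 15.06, 14.50, 14.58, 14.20 and 14.13 on scrambled arrays 1 to 5. No miR-1225-3p array reached the lowest scrambled array, and replicate 5 stood apart from its group. Its log2 fold change was -1.24 with a standard error of 0.249 (limma adjusted p = 0.0139), and -1.44 without replicate 5. The 2 remaining genes of the set at these steps, on the probes that stand for them, had smaller fold changes. PGK1, phosphoglycerate kinase, was 15.03 ± 0.257 (SD, n = 5) against 15.67 ± 0.083 (SD, n = 5), giving a log2 fold change of -0.64 with no overlap between groups, and -0.74 without replicate 5. PGAM1, phosphoglycerate mutase, was 13.50 ± 0.239 (SD, n = 5) against 13.96 ± 0.146 (SD, n = 5), giving a log2 fold change of -0.46 (limma adjusted p = 0.0368), and -0.55 without replicate 5. With the 75th percentile subtracted both changed sign, to 0.05 for PGK1 and 0.15 for PGAM1. A second probe of PGAM1 gave -2.87 (adjusted p = 0.0297 over kept probes), and the mean of both probes gave -1.66.

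**Figure D2:**
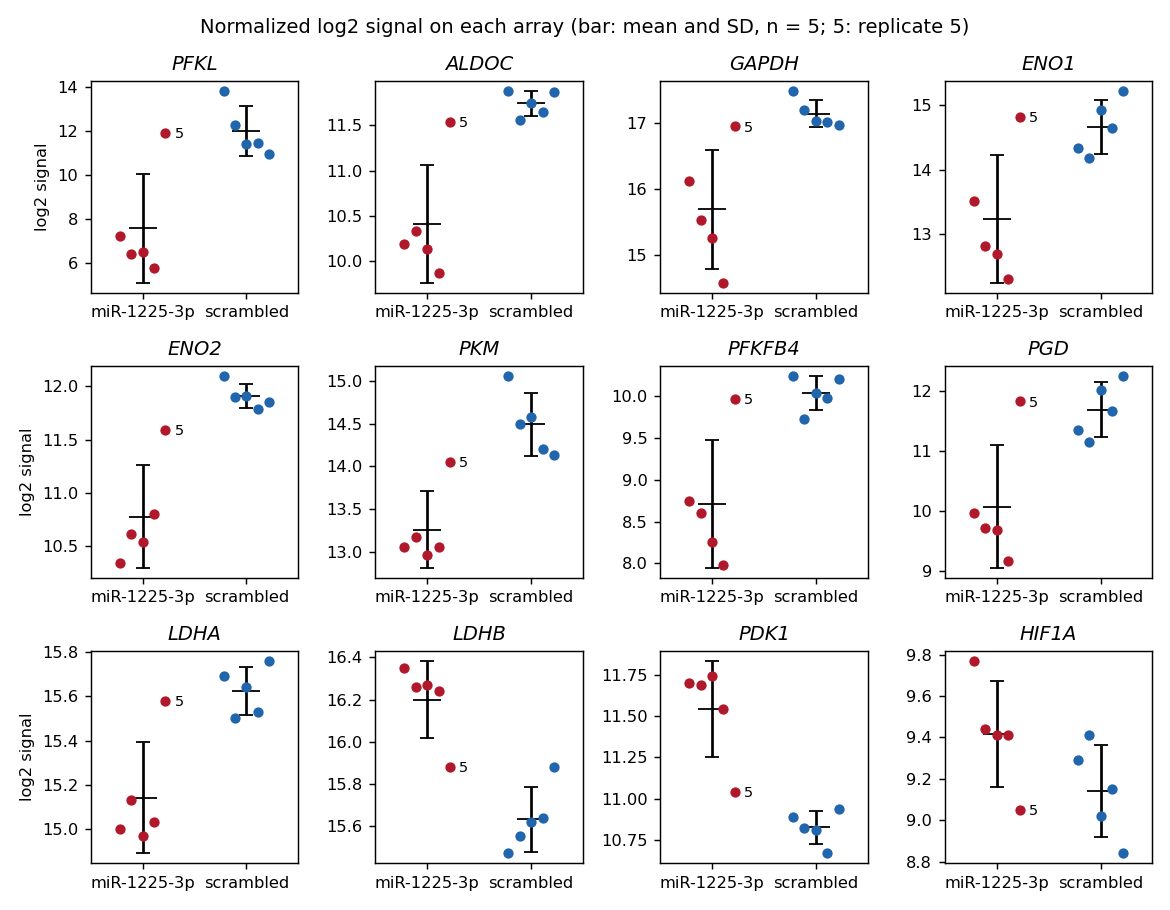
Normalized log2 signal of 12 genes on each of the 5 miR-1225-3p (red) and 5 scrambled (blue) arrays, each panel on its own axis that does not start at 0, with the group mean and SD as a bar and replicate 5 of miR-1225-3p numbered. PFKL, ENO1, PFKFB4 and PGD on replicate 5 lie within the range of the scrambled arrays, while the other miR-1225-3p arrays lie below it.

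Over the glycolytic steps from hexokinase to lactate dehydrogenase, 11 of 16 genes were called lower and 1 higher, against 18.1% and 17% of all genes. These counts were 5 and 3 with the 75th percentile subtracted, against 14.9% and 26.3%. This grouping too was chosen with earlier results of these data known. The gene called higher after cyclic loess was LDHB. Lactate dehydrogenase is a tetramer of LDHA and LDHB subunits, of which LDHA is known to favour lactate formation and LDHB its oxidation back to pyruvate. LDHA was 15.14 ± 0.253 (SD, n = 5) with miR-1225-3p and 15.62 ± 0.11 (SD, n = 5) with the scrambled precursor, giving a log2 fold change of -0.48 (limma adjusted p = 0.0316), and -0.59 without replicate 5. LDHB was 16.20 ± 0.182 (SD, n = 5) against 15.63 ± 0.153 (SD, n = 5), giving a log2 fold change of 0.57 with no overlap between groups (limma adjusted p = 0.0172), and 0.65 without replicate 5. The groups all but touched, as miR-1225-3p replicate 5 and scrambled replicate 5 both read 15.88. Within slide 1 LDHB was not called, at 0.65 (limma adjusted p = 0.0625). LDHA was no longer lower with the 75th percentile subtracted, at 0.21, whereas LDHB was at 1.28. The difference between the 2 subunits within arrays, which a shift of a whole array cannot change, was -1.05, with the smallest p of the exact permutation test, 0.00794 (adjusted 0.0298). The second probe of LDHA had -1.16 and that of LDHB 0.23, of which the latter was not called.

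Lactate leaves through SLC16A1 (MCT1) and SLC16A3 (MCT4). SLC16A3 was 11.08 ± 0.267 (SD, n = 5) against 11.52 ± 0.0974 (SD, n = 5), giving a log2 fold change of -0.43 (limma adjusted p = 0.0455) that became -0.40 without replicate 5 and 0.05 with the 75th percentile subtracted. SLC16A1 had -0.13 and was not called. The changes of these 2 transporters differed by 0.30 (exact permutation p = 0.0317, adjusted 0.0475), and by 0.05 with the 75th percentile subtracted (p = 0.444).

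Fructose 2,6-bisphosphate is the strongest known activator of phosphofructokinase, and the PFKFB enzymes both make and break it. PFKFB4 was lower. On miR-1225-3p arrays 1 to 5 it read 8.74, 8.60, 8.25, 7.98 and 9.96, and on scrambled arrays 1 to 5 it read 10.23, 9.72, 10.03, 9.97 and 10.20. As for PFKL, the first 4 miR-1225-3p arrays lay below every scrambled array and replicate 5 lay among them. The log2 fold change was -1.33 with a standard error of 0.326 (limma adjusted p = 0.0184), and -1.64 without replicate 5. PFKFB3 had a log2 fold change of -0.23 and PFKFB2 one of 0.37, and neither was called. Without replicate 5 PFKFB2 was called higher at 0.50 (limma adjusted p = 0.0384). The second probe of PFKFB3 had -0.88 (adjusted p = 0.066 over kept probes). PFKFB3 and PFKFB4 differed in their change by 1.10 (exact permutation p = 0.00794, adjusted 0.0298), and PFKFB2 and PFKFB3 by 0.60 (p = 0.127). The second probe of PFKFB3, nearer to PFKFB4, did not enter these tests.

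Around pyruvate dehydrogenase, 1 of 4 genes was called, against 35% of all genes, and its direction was higher. PDK1 encodes a kinase that shuts the enzyme off and is itself a known hypoxia-inducible factor target. It was 11.54 ± 0.292 (SD, n = 5) against 10.82 ± 0.105 (SD, n = 5), giving a log2 fold change of 0.71 with no overlap between groups (limma adjusted p = 0.0152), 0.84 without replicate 5 and 1.19 with the 75th percentile subtracted. PDK3, another of the kinases, had -0.31 (limma adjusted p = 0.073), and -0.37 without replicate 5, when it was called. PDK1 and PDK3 differed by 1.03 (exact permutation p = 0.00794, adjusted 0.0298). PDHA1 and PDHB, the 2 subunits of the first enzyme of the complex, had 0.40 and 0.21. The groups did not overlap for PDHA1, whose adjusted p of 0.0562 from limma became 0.0156 without replicate 5. PDK1, PDHA1 and PDHB were all called higher with the 75th percentile subtracted.

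In the pentose phosphate pathway, PGD was lower and the other 2 genes were not called. PGD encodes 6-phosphogluconate dehydrogenase, the second NADPH-producing step. Its log2 signal was 9.96, 9.71, 9.68, 9.16 and 11.83 on miR-1225-3p arrays 1 to 5, and 11.35, 11.16, 12.03, 11.67 and 12.26 on scrambled arrays 1 to 5. Replicate 5 lay in the middle of the scrambled arrays and the other 4 below all of them. The log2 fold change was -1.63 with a standard error of 0.453 (limma adjusted p = 0.0251), that is 3.09-fold lower, and -2.07 without replicate 5. It was -2.05 within slide 1, and -1.19 within slide 2 or -1.99 there without replicate 5. TALDO1 and TKT, transaldolase and transketolase of the non-oxidative branch, had log2 fold changes of 0.17 and 0.12. PGD differed from them by -1.80 and -1.74 (exact permutation p = 0.0317 for each, adjusted 0.0475). Under the 75th percentile PGD stayed lower, at -1.17, while TALDO1 and TKT were called higher, at 0.79 and 0.75.

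**Figure D3:**
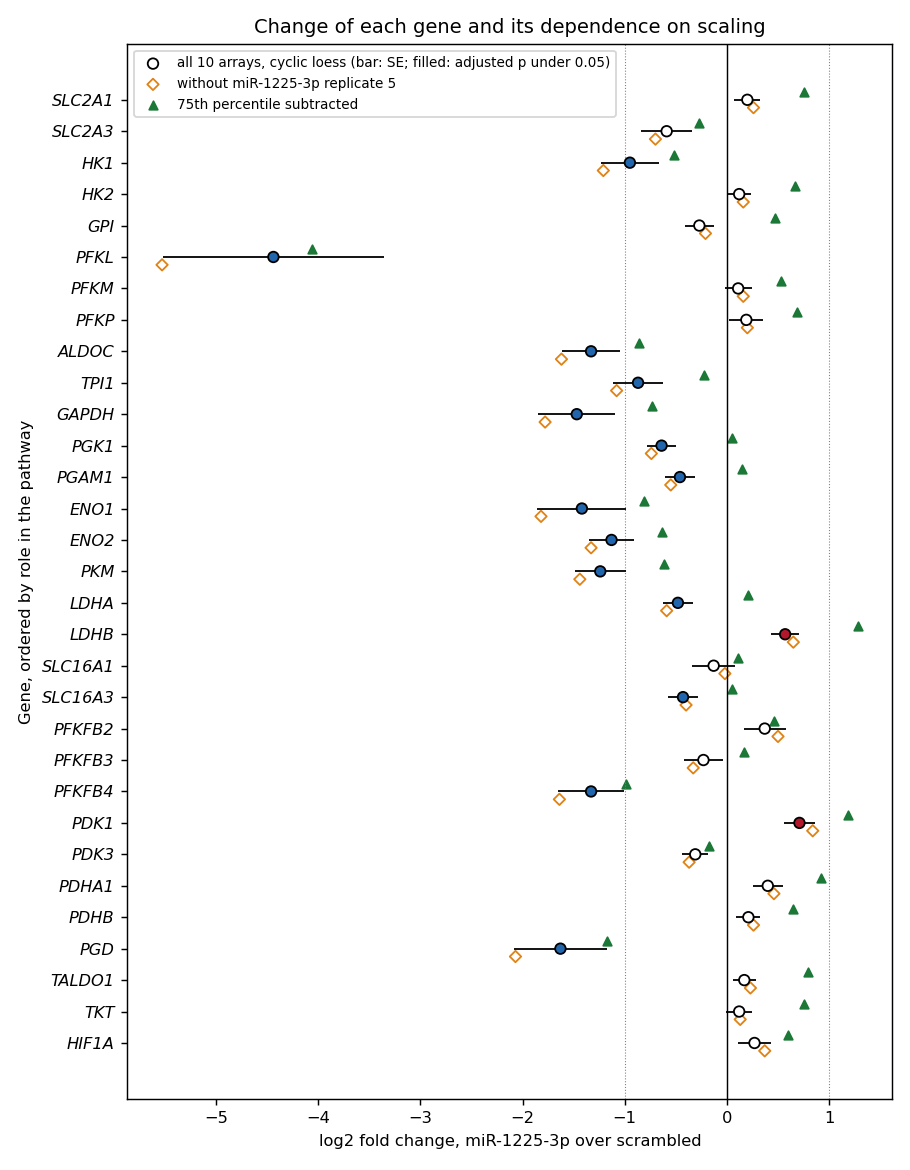
Log2 fold change of miR-1225-3p over scrambled for 31 genes, ordered by role, with its standard error (circles, filled where called, blue lower and red higher), without miR-1225-3p replicate 5 (diamonds) and with the 75th percentile of each array subtracted (triangles). Triangles lie to the right of circles for all 31 genes, and PFKL lies far to the left of the others under each setting.

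HIF1A itself was not called on the probe that stands for it. That probe read 9.77, 9.44, 9.41, 9.41 and 9.05 on miR-1225-3p arrays 1 to 5, and 9.29, 9.41, 9.02, 9.15 and 8.84 on scrambled arrays 1 to 5. The groups overlapped, with a log2 fold change of 0.27 and a standard error of 0.165 (limma adjusted p = 0.204), whereas with the 75th percentile subtracted this probe was called higher at 0.60 (limma adjusted p = 0.0417). Its second probe read 6.38, 5.47, 5.57, 5.00 and 6.84 against 7.06, 7.34, 6.83, 7.25 and 6.64, and its log2 fold change was -1.17 (adjusted p = 0.0258 over kept probes). The 2 probes thus went opposite ways, and no direction is given for HIF1A. In each of the 8 genes with 2 kept probes, the dimmer probe had the lower log2 fold change. The gap was smallest for HK2 (0.12 and 0.04) and largest for PGAM1 (-0.46 and -2.87). For 23 of the 31 genes, PFKL among them, there was only 1 kept probe, so this dependence on the probe could not be examined. Which transcripts each probe binds was not tested, and neither were the proteins, among them the HIF1A protein that oxygen is known to control.

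The 8 genes called in the same direction whichever single array was left out were PFKL, ALDOC, PGK1, ENO2, PKM, PFKFB4, LDHB and PDK1, and 5 of them also had a fold over 2. How many of all genes kept their call in this way was not counted. The other 8 calls were each lost without at least 2 of the 10 arrays, left out singly. LDHA and PGAM1 were no longer called when any array but miR-1225-3p replicate 5 was left out, and SLC16A3 when any but miR-1225-3p replicates 4 and 5 was left out. HK1 and ENO1 were lost without miR-1225-3p replicates 2, 3 or 4 or scrambled replicates 1, 3, 4 or 5, TPI1 without the same arrays other than scrambled replicate 5, and PGD without miR-1225-3p replicates 2, 3 or 4 or scrambled replicates 3 or 4. Their highest adjusted p in limma with an array left out was 0.0768 for LDHA, 0.0835 for PGAM1, 0.0988 for SLC16A3, 0.0734 for HK1, 0.0773 for ENO1, 0.0639 for TPI1, 0.0634 for PGD and 0.0544 for GAPDH, and none of these genes changed sign. The log2 fold changes with an array left out ran from -0.59 to -0.44 for LDHA, from -0.55 to -0.39 for PGAM1, from -1.82 to -1.19 for ENO1 and from -2.07 to -1.40 for PGD. Of the 31 genes, 8 did not overlap between the groups, as against 12.7% of all genes, and 35% of all genes were called. The 8 genes that did not overlap were ALDOC, GAPDH, PGK1, ENO2, PKM, LDHB, PDK1 and PDHA1.

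The same pathways hold other genes, from a list of 52 of which 35 were tested. Of these 10 were called higher and 6 lower, against 17% and 18.1% of all genes, and the median log2 fold change was -0.01. The counts were 12 and 6 with the 75th percentile subtracted, against 26.3% and 14.9%. The largest rises were those of PDK4, a further pyruvate dehydrogenase kinase, at 1.17, RPE, ribulose-phosphate epimerase, at 1.08, DERA, which cleaves deoxyribose phosphate, at 1.02, and DLAT, the acetyltransferase of pyruvate dehydrogenase, at 0.98. PDK4 was well above background on 3 miR-1225-3p and 2 scrambled arrays only. It thus passed the filter on dim probes only through the group in which it was high. MPC1, of the mitochondrial pyruvate carrier, was higher at 0.82 (limma adjusted p = 0.0136), and its partner MPC2 had 0.24 and was not called. The largest falls were those of ADPGK, an ADP-dependent glucokinase, at -1.46, BSG (basigin), the chaperone of the lactate transporters, at -1.44, G6PC3, a glucose 6-phosphatase, at -1.13, and PDPR, a regulator of pyruvate dehydrogenase phosphatase, at -0.92. G6PC3 was well above background on 1 miR-1225-3p and 4 scrambled arrays, so it too passed that filter only through the group in which it was high. PDK4 and G6PC3 are included in the counts above.

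Among 9 tested pentose phosphate and ribose genes of this list, 5 were called higher and none lower, against 17% and 18.1% of all genes. With the 75th percentile subtracted the counts were also 5 and 0, against 26.3% and 14.9%, but the genes were not all the same. PRPS1 then took the place of TKTL1, which was well above background on 3 arrays of each group. Without replicate 5, after cyclic loess, the counts were 5 higher and 1 lower, against 26.4% and 29% of all genes. LDHC and PKLR, of testis and of liver and red cells, had -0.22 and -0.06, and PFKFB1 was not tested.

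The list of hypoxia-inducible factor pathway genes outside energy metabolism held 25 genes, of which 23 were tested. Of these, 17 were called in neither direction, 5 lower and 1 higher, against 18.1% and 17% of all genes. Called lower were EGLN2, an oxygen-sensing prolyl hydroxylase, at -1.77, CA9, a carbonic anhydrase and known hypoxia marker, at -1.75, BHLHE40, a transcriptional repressor, at -0.95, NDRG1 at -0.90 and 1 further gene. Only ANKRD37 was called higher, at 0.43. The median was -0.11, beside -0.06 for all genes. With the 75th percentile subtracted 10 were called higher and 3 lower, against 26.3% and 14.9% of all genes, and the median was 0.46, beside 0.16 for all genes.

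**Figure D4:**
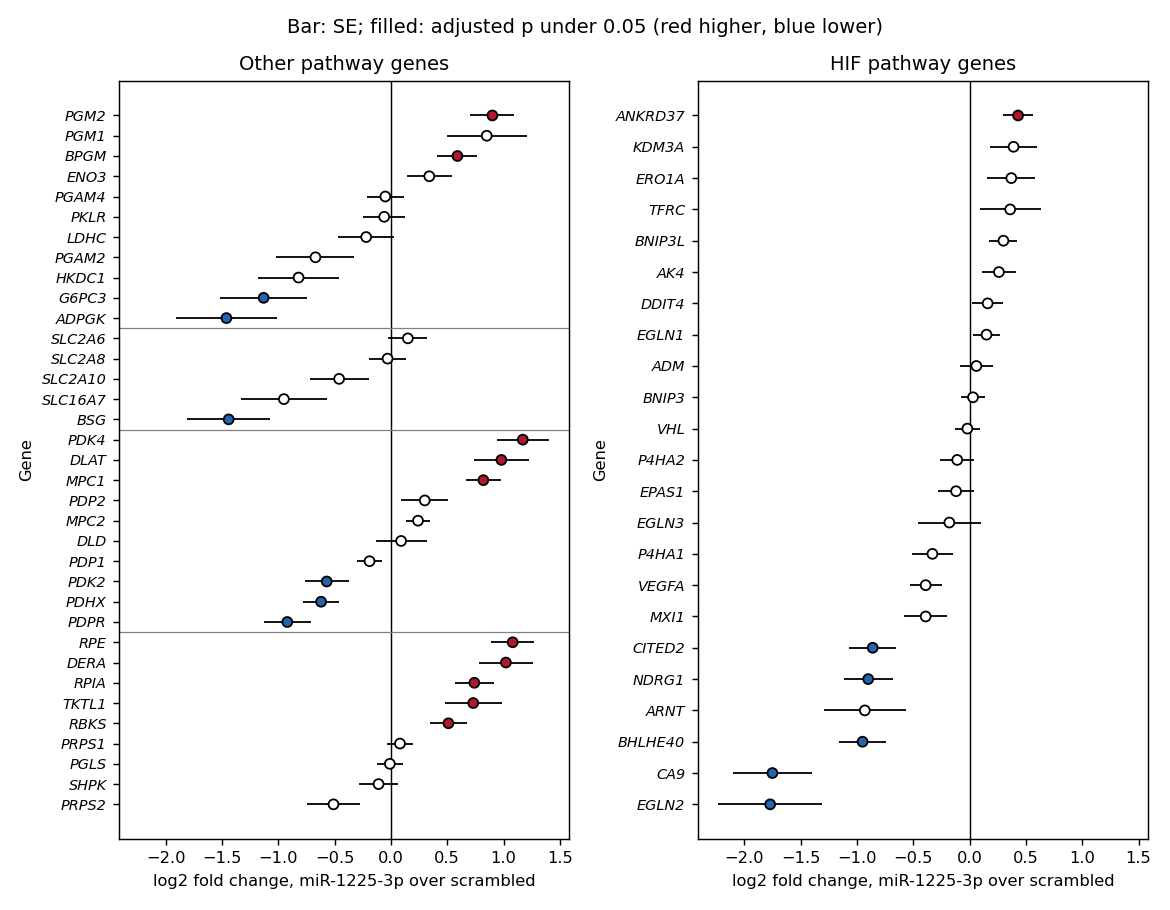
Log2 fold change of miR-1225-3p over scrambled with its standard error for 35 other genes of the pathways (left, lines between glycolysis, transport, pyruvate and pentose phosphate genes) and 23 genes of the hypoxia-inducible factor pathway (right). Filled circles are called, red higher and blue lower, and the right panel has 1 red and 5 blue circles.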

How the data were processed

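Total RNA of MEG-01 cells was hybridized to 10 Agilent arrays, 5 per group, in a single Cy3 channel. The scanner output that the authors deposited gives per spot a processed intensity, already corrected for background, the median and local background intensities, and flags of 0 or 1. Feature Extraction 10.7.3.1 is named in the scanner output and in the submitters' processing notes, a version other than that in the methods. A table of log2 values, which the authors normalized and deposited for 29271 probes, served as an alternative. Their column medians were between 4.77 and 5.15, and they correlated with the values used here, after centring each probe, at 0.848 to 0.988 per array. The methods express normalized data as a difference from the log geometric mean of controls. Whether the deposited values were centred in this way is not known.

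Log2 processed signals of 58717 spots other than controls were brought to a common scale with cyclic loess (3 iterations, limma 3.58.1, R 4.3.3). Outlier-flagged spots (0.627%) were dropped, and replicate spots were averaged per probe. Of 42405 probes, 20648 passed a filter that asked for a signal well above background on 3 or more of 5 arrays in one or both groups. Where several probes of a gene passed, the one with the highest mean signal stands for it. The accessions of 24910 probes matched a symbol in RefSeq (GRCh38.p14), and that of ALDOA did not. The array grid names another build, so no probe coordinates are given. Groups were compared with lmFit and eBayes in limma and Benjamini-Hochberg adjustment over 17379 genes, a test checked on simulated data. The number of arrays limits the precision.

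All genes of the set are named. Values on every array are given for those called with a fold over 2 and for HIF1A, and up to 4 called genes per direction are named from the other lists, with a few chosen by name. Some other genes that this rule or the marker lists cover are not reported here. The genes, lists, pairs and roles were chosen with earlier results of these data known. Alternatives covered scaling, the source of the values, background, filter, flags, probe choice, test, replicate and slide blocks, and leaving out each array. Those planned were all run, and normexp (offset 50) used the median signal. One label of the scrambled samples reads as no treatment, but titles and methods describe a control precursor, which was followed. Seed matches were not searched.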

Additional observations from a re-analysis of the deposited data

Results flagged for a closer look

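In 96 groups of 5 arrays, for 48 named genes, the highest or lowest array was compared with the rest of its group by Dixon's criterion. In 12 groups it stood apart, where chance gives 4.8, and in 10 of these the array was miR-1225-3p replicate 5. That array read above the rest of its group for PFKL (11.92, next highest 7.20), ALDOC (11.54, next 10.33), PKM (14.05, next 13.17), LDHA (15.58, next 15.13), LDHC (6.79, next 5.80) and PKLR (7.82, next 7.35). It was below the rest of its group for LDHB (15.88, next lowest 16.24), RPE (8.71, next 9.32), DLAT (6.59, next 7.52) and ANKRD37 (13.42, next 13.75). The 4 genes called lower among these stood high on this array, and the 4 called higher stood low. In the scrambled group, replicate 4 was high for TALDO1 (13.93, next 13.84) and replicate 1 was low for DLAT (6.02, next 6.48). Neither TALDO1 nor PKLR nor LDHC was called in the comparison of the groups.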

How the results depend on the processing

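Of the 16 genes of the set called in limma, PFKL alone was called in the same direction under every alternative other than the replicate block and slide 2 alone, and 4 changed sign with the 75th percentile subtracted. With the 75th percentile subtracted, the median of the set was 0.15 and 4 genes were called with a fold over 2, PFKL and PGD lower and LDHB and PDK1 higher, and the log2 fold change was 0.47 for GPI, 0.05 for PGK1, 0.15 for PGAM1, 0.21 for LDHA, 0.11 for SLC16A1, 0.05 for SLC16A3 and 0.17 for PFKFB3. After quantile normalization the median was -0.13, and GPI was at 0.01 and SLC16A1 at 0.02. Without normalization 1266 of all genes and 1 of the set were called, the latter with a fold over 2, and GPI was at 0.05. Averaging the probes of a gene gave a median of -0.45, with PFKP at -0.11, HIF1A at -0.45, PGAM1 at -1.66 and SLC2A3, now called, at -0.95. Without a filter on dim probes 3411 of 35267 genes and 9 of the set were called, and with array weights 11757 of 17379 genes and 23 of the set. Within slide 2, limma called 0 genes and 0 of the set, also with a fold over 2, with 1220 genes and none of the set at an unadjusted p under 0.05. Without miR-1225-3p replicate 5 there, an alternative chosen after seeing the data, SLC16A1 was at 0.08. When each array was left out in turn, 2129 to 9624 genes and 8 to 20 of the set were called, 5 to 10 with a fold over 2, and the median was -0.37 to -0.29. The count of the set was 8 without miR-1225-3p replicate 2 or 3, when 2129 and 2252 of all 17379 genes were called. It was 9 without scrambled replicate 3 or 4. It was 10 without miR-1225-3p replicate 4 or scrambled replicate 1, when 3520 and 3380 of all genes were called. With the slide as a block 14 of the set and 5278 of all genes were called, and PGAM1 and SLC16A3 were lost. The cause of these changes was not tested.

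Deviations of same-numbered arrays from their group means correlated at between -0.401 and 0.0723, so no pairing by replicate number was seen. The miR-1225-3p means included replicate 5, which lay among the scrambled arrays, so this check could miss a pairing. With the replicate block limma called 0 genes, 0 of the set and 0 with a fold over 2, with 7474 genes and 16 of the set at an unadjusted p under 0.05. By the methods' t-test after Benjamini-Hochberg adjustment 16 of the set were called, 3 higher and 13 lower. Of all 17379 genes, 2642 were called higher and 2035 lower by that test.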

Other observations

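Of the marker genes measured alongside, 28 were tested in limma, and 4 were called higher and 4 lower, a share of 28.6% called against 35% of all genes. The largest rises were those of CD3E, a T cell receptor chain well above background on only 4 arrays, with a log2 fold change of 1.96, S100A8, a granulocyte protein, with 1.08, GYPB, a red cell glycophorin, with 1.06, and MPO, myeloperoxidase, with 0.80. For CD3E these were 3 miR-1225-3p arrays and 1 scrambled array, so it passed the filter on dim probes only through the group in which it was high. The falls were those of HBE1, embryonic globin, with -1.71, ITGA2B, the platelet integrin chain, with -1.39, FLI1 with -0.60 and NFE2 with -0.43, the last 2 being transcription factors of megakaryocytes. NFE2 was at 0.13 with the 75th percentile subtracted, and the other 7 kept their sign.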
